A study of Mus musculus with 6 samples.

Results

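A divergent promoter is the stretch of DNA between the start sites of a pair of neighbouring genes that are read away from each other. The 1500 divergent promoters described here are those to which the annotation of a mouse promoter tiling array assigns a gene on either side. They were taken by that annotation alone, with no measured value, from 18534 annotated units of the array set. They hold 16286 of its 474380 probes, or 3.43%. The 14278 promoter regions assigned to a single gene served as the comparison, always at the same distance from a start site.

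The study asked which promoters SMAD1/5, SMAD2 and SMAD4 occupy in R1, a line of mouse embryonic stem cells that was kept undifferentiated without feeder cells, in knockout serum replacement with leukemia inhibitory factor. DNA recovered from cross-linked chromatin with an antibody to a linker region of SMAD1/5, SMAD2 or SMAD4 was labelled with Cy5. It was hybridised against Cy3-labelled whole cell extract DNA of the same chromatin, the input. Each antibody had 1 biological replicate on 2 arrays that carry different genome positions (chromosome 9 is split between them), with no dye swap, no other genotype and no treatment. No p-value is therefore given. Every SE or SD below is a spread over promoters or probes of the same arrays, so the spread between experiments is unknown, and the number of arrays limits the precision.

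SMAD proteins relay extracellular growth factor signals to genes. SMAD1 and SMAD5 answer to bone morphogenetic proteins (BMP), SMAD2 to TGF-beta, Activin and Nodal, and both branches share the partner SMAD4. Divergent promoters are common in mammals and are known for genes of DNA repair, mitochondria and basic metabolism. Many are rich in CpG, lack a TATA box and start transcription in both directions from a short open region. SMAD proteins contact DNA weakly, at the SMAD box GTCTG and at GC-rich sites with the core GGCGC.

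The start sites of a pair lay between 43 and 16793 bp apart, with a median of 3404.5 bp. The distances formed a close and a distant set. In 546 pairs (36.4%) the starts lay within 1000 bp, called close pairs here. In 642 pairs they lay over 5000 bp apart. Close pairs had a median of 1 probe between their starts and distant pairs, over 1000 bp, a median of 15. All told 292 promoters rested on 1 probe. A gene named for a microRNA stood on at least 1 side of 9 promoters.

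**Figure D1:**
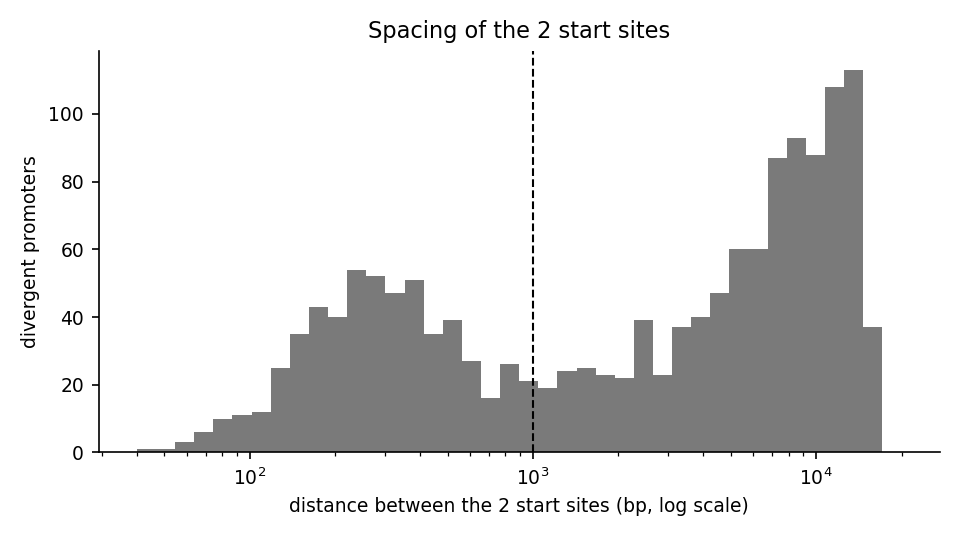
Number of divergent promoters (vertical axis) by the distance between the start sites in bp (horizontal axis, log scale); the dashed line marks 1000 bp. The 546 pairs to the left of the line form the close set, and the distant set extends to 16793 bp.

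The sequences of 6 close pairs show what such a promoter looks like. They were chosen because their pairs are well known (Sirt3/Psmd13, Mrps12/Sars2, Hspd1/Hspe1, Abcg5/Abcg8) or because their values return below (Sdhd/Timm8b, Slc5a6/Atraid). Each is the RefSeq promoter of the gene on the plus strand (GRCm38.p6), from 250 bases before to 50 after its start. Capitals mark the bases between that start and the start of its partner on the minus strand. In Slc5a6/Atraid the partner's start lies outside the window, so all bases before the Atraid start are in capitals.

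Psmd13 with Sirt3, chr7:140882144-140882443, plus strand, 85 bp between starts: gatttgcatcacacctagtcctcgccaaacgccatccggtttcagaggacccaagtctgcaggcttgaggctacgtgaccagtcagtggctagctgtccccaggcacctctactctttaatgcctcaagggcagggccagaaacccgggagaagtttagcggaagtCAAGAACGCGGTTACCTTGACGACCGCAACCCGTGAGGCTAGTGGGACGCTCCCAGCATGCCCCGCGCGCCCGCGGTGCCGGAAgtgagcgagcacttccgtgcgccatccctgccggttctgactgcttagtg
Sars2 with Mrps12, chr7:28741718-28742017, plus strand, 147 bp between starts: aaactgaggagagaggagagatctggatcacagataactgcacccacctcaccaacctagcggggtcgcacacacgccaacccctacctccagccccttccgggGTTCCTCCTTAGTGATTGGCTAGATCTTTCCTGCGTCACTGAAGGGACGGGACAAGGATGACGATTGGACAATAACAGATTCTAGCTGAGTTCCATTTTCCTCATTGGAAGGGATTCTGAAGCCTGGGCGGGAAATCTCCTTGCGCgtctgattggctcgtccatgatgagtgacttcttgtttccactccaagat
Hspe1 with Hspd1, chr1:55087898-55088197, plus strand, 216 bp between starts: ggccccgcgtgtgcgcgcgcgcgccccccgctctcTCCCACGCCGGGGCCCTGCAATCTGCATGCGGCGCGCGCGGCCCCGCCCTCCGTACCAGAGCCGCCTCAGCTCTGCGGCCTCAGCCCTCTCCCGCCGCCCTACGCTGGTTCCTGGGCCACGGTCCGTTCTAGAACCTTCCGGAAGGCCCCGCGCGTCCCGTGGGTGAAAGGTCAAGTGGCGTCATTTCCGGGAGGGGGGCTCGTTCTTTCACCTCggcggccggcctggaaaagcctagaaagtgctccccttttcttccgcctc
Timm8b with Sdhd, chr9:50603651-50603950, plus strand, 52 bp between starts: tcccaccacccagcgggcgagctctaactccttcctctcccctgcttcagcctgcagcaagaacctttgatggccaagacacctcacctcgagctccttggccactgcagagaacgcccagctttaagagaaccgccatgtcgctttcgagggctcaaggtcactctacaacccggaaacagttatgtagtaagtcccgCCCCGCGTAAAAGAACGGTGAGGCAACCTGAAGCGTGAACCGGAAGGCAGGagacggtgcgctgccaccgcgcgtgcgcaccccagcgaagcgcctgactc
Abcg8 with Abcg5, chr17:84682871-84683170, plus strand, 110 bp between starts: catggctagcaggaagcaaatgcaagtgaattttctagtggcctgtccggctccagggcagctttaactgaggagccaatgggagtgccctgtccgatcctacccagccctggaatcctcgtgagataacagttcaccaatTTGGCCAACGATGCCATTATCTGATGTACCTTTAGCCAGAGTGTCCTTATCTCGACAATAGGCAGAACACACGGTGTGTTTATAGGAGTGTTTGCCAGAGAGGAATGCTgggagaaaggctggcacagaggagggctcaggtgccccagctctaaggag
Atraid with Slc5a6, chr5:31048390-31048689, plus strand, 561 bp between starts: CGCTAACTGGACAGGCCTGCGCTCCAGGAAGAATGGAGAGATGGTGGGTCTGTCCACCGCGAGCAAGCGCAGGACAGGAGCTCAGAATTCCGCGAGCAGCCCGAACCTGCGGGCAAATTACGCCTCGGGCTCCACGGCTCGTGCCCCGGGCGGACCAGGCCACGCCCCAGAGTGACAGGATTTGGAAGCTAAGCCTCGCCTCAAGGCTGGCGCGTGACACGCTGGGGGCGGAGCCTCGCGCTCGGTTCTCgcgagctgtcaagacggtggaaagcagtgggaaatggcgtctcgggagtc

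The RefSeq promoters of close pairs were CpG-rich. Sequences were found for 2417 of 3000 gene entries, and 1 per gene was counted. The 905 genes of close pairs held a median of 24 CpG in 300 bases. Genes of distant pairs held 16 (n = 1508), genes with a single promoter on the arrays 15 (n = 10445) and all RefSeq promoters 7 (n = 27025). The median GC content was 62% for close pairs, 57.3% for distant pairs, 57.7% for genes with a single promoter and 52.7% over all RefSeq promoters. Promoters of a close pair overlap in part, so their sequences are not independent.

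Short motifs were counted on both strands, as descriptions of letters and not as bound sites. The SMAD box (GTCTG or CAGAC) was present in 49.5% of close-pair promoters, 47.9% of distant-pair promoters, 48.6% of single promoters and 49.7% of all promoters. The GC-rich SMAD core (GGCGC or GCGCC), which holds a CpG itself, was present in 70.5%, 51.9%, 49.9% and 37.1%, in the same order. The binding core of ETS factors (CCGGAAG or CTTCCGG), also with a CpG inside, was present in 30.2%, 15.5%, 11.1% and 9.12%. The TATA box (TATAAA or TTTATA) was present in 5.97%, 11.3%, 13.1% and 14.2%. Of the printed promoters, Hspe1 held 36 CpG and 2 ETS cores that overlap each other on opposite strands, Psmd13 22 CpG with 1 SMAD box, and Abcg8 6 CpG with a TATA box.

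On average both channels were brighter at divergent promoters than at single promoters on all 6 arrays, and the SMAD4 arrays had the largest excess in the input. The values are log2 signals over the median of the array's own channel, compared with single promoters in the same 250-bp step of distance to the nearest start site, and averaged over both arrays. The SMAD4 input was higher by 0.42 ± 0.03 (SE over 1500 promoters), or 1.34-fold. The SMAD1/5 input was higher by 0.17 ± 0.04 and the SMAD2 input by 0.17 ± 0.03. The median SMAD1/5 input difference was smaller, 0.02 on array 1 and 0.09 on array 2. It lay above 0 at 52.3% of divergent promoters, against 57.5% for the SMAD2 and 70.9% for the SMAD4 input. A typical divergent promoter was thus little brighter in the SMAD1/5 input. The immunoprecipitates were more alike, higher by 0.26 ± 0.03 for SMAD1/5, 0.20 ± 0.03 for SMAD2 (1495 promoters, the others having flagged spots) and 0.26 ± 0.02 for SMAD4.

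The SMAD4 ratio was therefore lower at divergent than at single promoters. The log2 ratio of immunoprecipitate over input, centred on each array's median, was lower by 0.18 on array 1 and by 0.15 on array 2, with a mean matched difference of -0.16 ± 0.01. It was -0.048 when each probe counted once, -0.075 with normexp background correction and 0.0053 with the mean input of the 3 antibodies in place of its own. It was above 0 at 37.5% of the divergent promoters. On 1 of 20 chromosomes, the X, the mean SMAD4 difference was above 0, at 0.03. The SMAD2 ratio differed by 0.0054 on array 1 and 0.066 on array 2, mean 0.04 ± 0.01, but -0.036 with normexp and -0.055 with the mean input. The SMAD1/5 ratio differed by 0.14 and 0.04, mean 0.09 ± 0.03, and 13 of 20 chromosomes were above 0. With the mean input it was 0.0067, and on the authors' values 0.022.

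Single promoters of the divergent set spread far more widely than these means. On array 1 the mean SMAD1/5 log2 ratio of a divergent promoter ran from -6.48 through a median of -0.21 to 3.58. The SMAD2 ratio ran from -1.96 through -0.03 to 2.60, and the SMAD4 ratio from -2.03 through -0.09 to 2.54. Array 2 gave ranges of -6.43 to 3.48 (SMAD1/5), -2.22 to 2.54 (SMAD2) and -2.49 to 3.07 (SMAD4). The SD over promoters of the matched SMAD1/5 difference was 1.11 on array 1, against 0.54 for SMAD2 and 0.56 for SMAD4. On array 1, 75.7% of divergent probes lay well above background in the SMAD1/5 input, against 89.5% for SMAD2 and 99.7% for SMAD4. On array 2 these shares were 89.2%, 87.8% and 99.9%. The part of signal strength in the wider SMAD1/5 spread was not tested.

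The SMAD4 deficit lay mainly in close pairs. Pairs up to 1000 bp apart had a matched SMAD4 log2 ratio difference of -0.36 ± 0.03 (SE, n = 546), 0.780 of the single-promoter ratio, with -0.38 on array 1 and -0.34 on array 2. Pairs over 1000 bp apart had -0.05 ± 0.01 (n = 954). The difference between the close and distant sets was -0.31 ± 0.03, and -0.32 and -0.29 on the separate arrays. By spacing, the SMAD4 difference was -0.42 ± 0.05 at 250 bp or less (n = 235), -0.35 ± 0.05 above 250 and up to 500 bp (n = 197) and -0.24 ± 0.07 above 500 and up to 1000 bp (n = 114). Beyond that the classes lay between -0.07 and -0.03.

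The SMAD4 input differed between close and distant pairs, by 0.32 ± 0.06, and the SMAD4 immunoprecipitate by 0.02 ± 0.06. The input of close pairs was higher than that of single promoters by 0.63 ± 0.05 and that of distant pairs by 0.31 ± 0.03. The immunoprecipitate was higher by 0.27 ± 0.05 in close and 0.25 ± 0.03 in distant pairs. When the mean input of the 3 antibodies took the place of SMAD4's own, the close-pair difference was -0.09 ± 0.04 and the distant-pair difference 0.06 ± 0.01. With normexp background correction the close-pair difference was -0.22 and the distant-pair difference 0.0099. SMAD4 arrays also had another version of the scanner software than the rest, which cannot be told apart from the antibody.

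With each antibody's own input, the close and distant sets did not separate beyond their errors for SMAD1/5 and SMAD2. The close-minus-distant difference of the log2 ratio was -0.10 ± 0.07 for SMAD1/5 and -0.0026 ± 0.03 for SMAD2. With the mean input, close pairs stood at -0.08 ± 0.04 and distant pairs at 0.05 ± 0.02 for SMAD1/5. For SMAD2 they stood at -0.14 ± 0.03 and -0.0081 ± 0.01. That mean holds the SMAD4 input, which differed between close and distant pairs by 0.32 ± 0.06. The SMAD1/5 and SMAD2 inputs differed by 0.14 ± 0.09 and 0.04 ± 0.06, and their immunoprecipitates by 0.04 ± 0.07 and 0.04 ± 0.06. No separation of SMAD1/5 or SMAD2 themselves is therefore read from the mean input. With their own input, SMAD1/5 close pairs differed from single promoters by 0.13 on array 1 and by -0.08 on array 2. The highest SMAD1/5 class was that above 1000 and up to 2500 bp, at 0.29 ± 0.07 (n = 144), and the lowest that up to 250 bp, at -0.16 ± 0.11. Every SMAD2 class lay between -0.02 and 0.08.

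**Figure D2:**
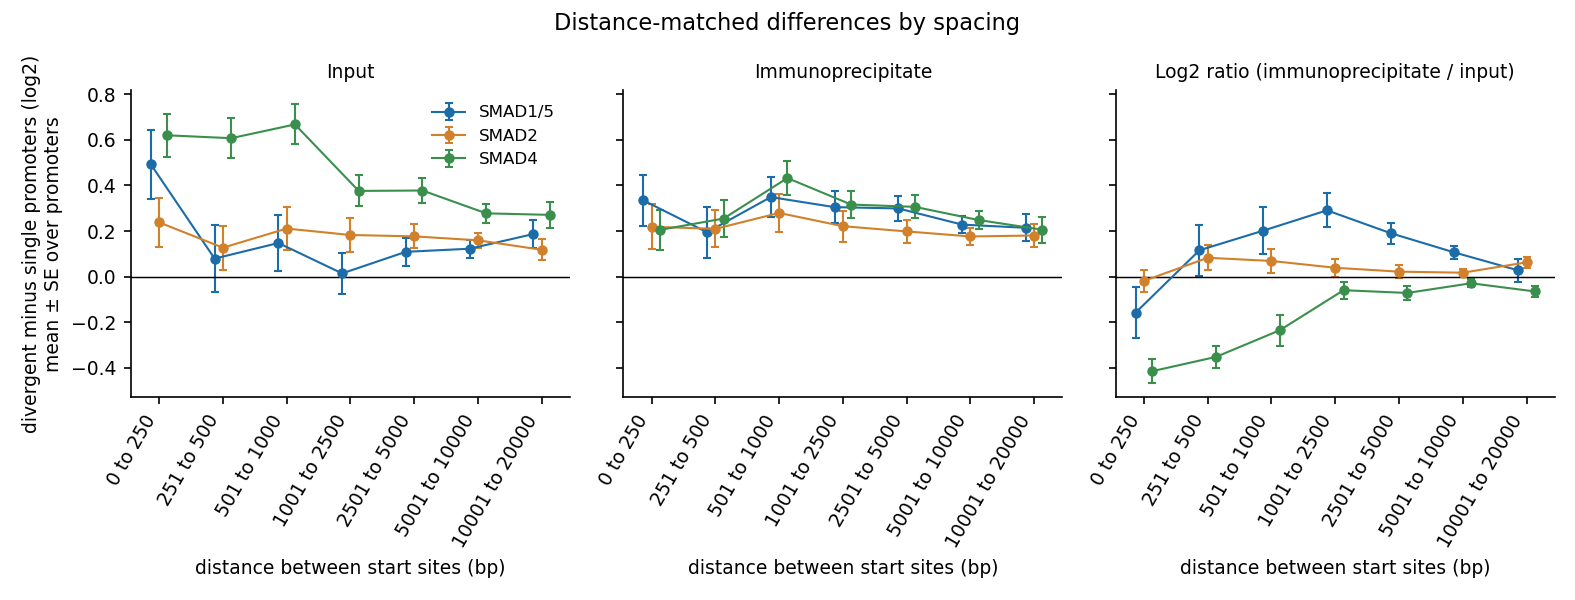
Distance-matched difference between divergent and single promoters (vertical axis, log2) by distance between the start sites (horizontal axis, bp) for the input, the immunoprecipitate and their log2 ratio; points are means over promoters, averaged over both arrays, and bars are SE. The SMAD4 input stands at 0.61 to 0.67 in the 3 closest classes and the SMAD4 ratio at -0.42 to -0.24, while the 3 immunoprecipitates stay close together.

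Around the midpoint between the starts of close pairs, the input formed a broad mound. Probes of any annotation class were used here, in steps of 250 bp, with the plus-strand gene to the right. In the step just right of the midpoint the SMAD4 input was 1.11 ± 0.05 over the array median (SE over 735 probes), against 0.57 ± 0.01 in the step just inside single start sites (16166 probes). In the step from 250 to 500 bp to the left it was 0.87 ± 0.05 against 0.11 ± 0.01 upstream of single starts. The SMAD2 input just right of the midpoint was 0.62 ± 0.06 against 0.73 ± 0.01 inside single starts. From 250 to 500 bp to the left the SMAD2 input was 0.66 against 0.06 and the SMAD1/5 input 1.55 against 0.70. Left of the midpoint lie the start and body of the minus-strand gene, whereas left of a single start lies upstream DNA. In the step from 250 to 500 bp inside single starts, the inputs were 0.34 (SMAD4), 0.43 (SMAD2) and 1.19 (SMAD1/5). For SMAD2 the close pairs were thus broader than single starts rather than higher, in a comparison of 2 opposed starts with 1.

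The SMAD4 log2 ratio was lowest just right of the midpoint of close pairs, at -0.39 ± 0.03, where single starts stood at -0.0078 ± 0.01. In the step that begins 1000 bp to the right it was 0.04 ± 0.04 against 0.16 ± 0.01. The SMAD1/5 ratio dipped in both settings, to -0.61 ± 0.07 just left of the midpoint and to -0.69 ± 0.01 just inside single starts. The SMAD2 ratio just right of the midpoint was 0.08 ± 0.03, against 0.03 ± 0.01.

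**Figure D3:**
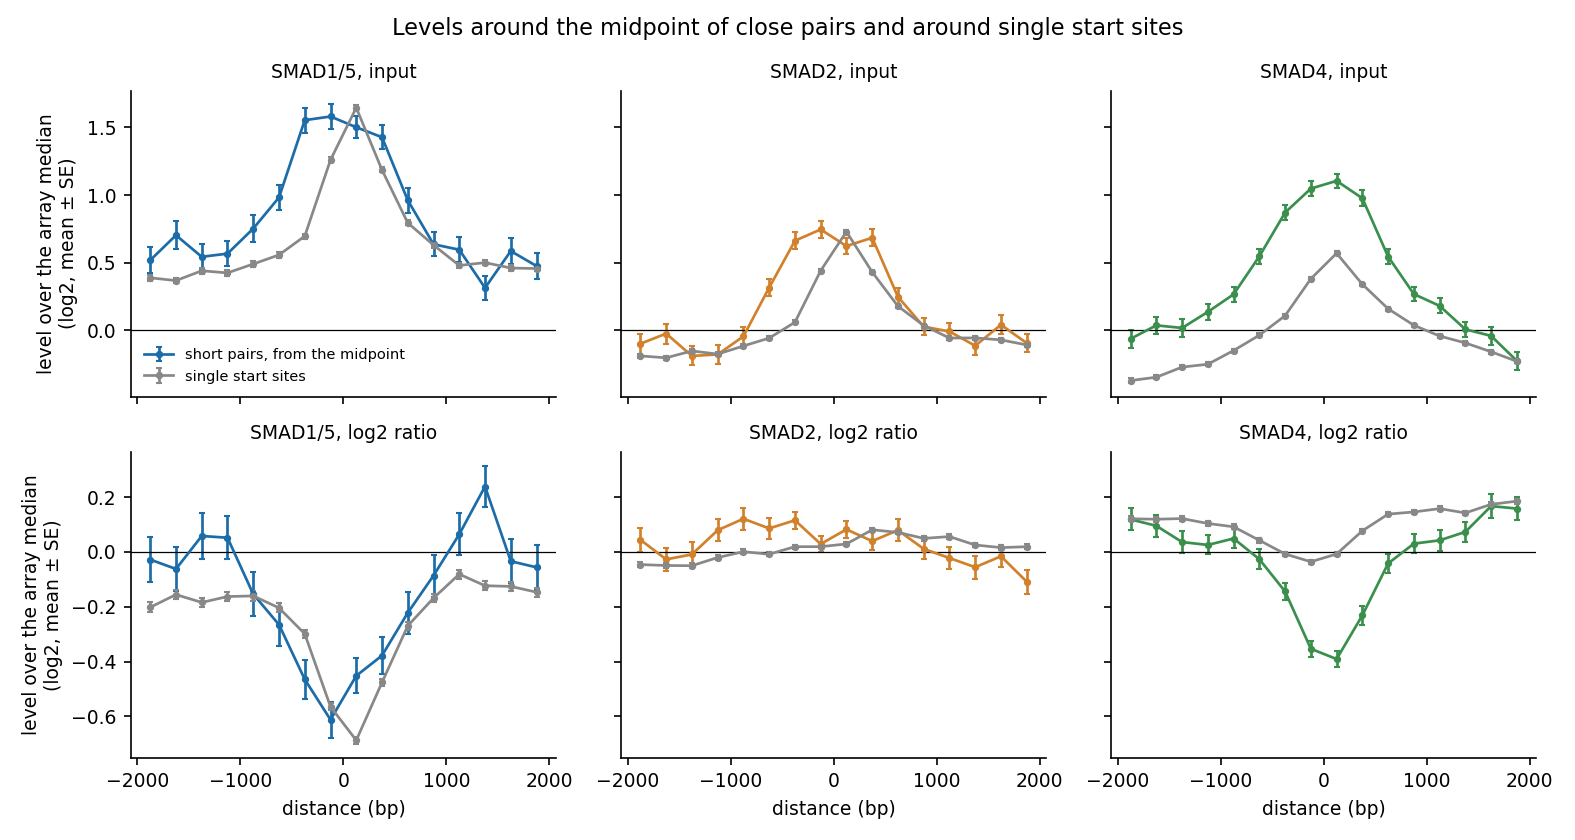
Mean level over the array median (vertical axis, log2, ± SE over probes, averaged over both arrays) against distance in bp from the midpoint of close pairs (coloured) or from single start sites with the gene to the right (grey), for the input and for the log2 ratio of each antibody. The SMAD4 ratio of close pairs falls to -0.39 near the midpoint while that of single starts stays near 0.

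CpG content moved with both the input and the immunoprecipitate. RefSeq promoters were ranked by CpG count into 5 classes. Near single start sites on array 1, within 500 bp, the SMAD4 input was -1.11 in the class with the fewest CpG (up to 3 in 300 bases), -0.01 in the next, and 0.63, 0.77 and 0.56 in the other 3. The SMAD1/5 input went from 0.29 to 1.81 and the SMAD2 input from -0.58 to 0.58 between the lowest and the highest class. Between the same classes the immunoprecipitates went from -1.11 to 0.31 for SMAD4, -0.66 to 0.66 for SMAD2 and -1.10 to 0.39 for SMAD1/5. When close pairs were matched on CpG class as well as distance, their SMAD4 input difference on array 1 went from 0.61 ± 0.08 to 0.25 ± 0.08 (n = 254). The SMAD4 ratio difference went from -0.40 ± 0.05 to -0.29 ± 0.05 and kept its sign. The SMAD4 immunoprecipitate went from 0.21 ± 0.07 to -0.04 ± 0.07. The input difference of close pairs turned for the other antibodies, from 0.06 ± 0.13 to -0.33 ± 0.12 for SMAD1/5 and from 0.12 ± 0.09 to -0.14 ± 0.09 for SMAD2. Array 2 was left out of this matching by a coverage cut-off, since 73.1% of its single regions had a sequence, against 80.7% on array 1. Without matching on distance step, its SMAD4 ratios at close pairs were -0.175, -0.10, -0.35, -0.46 and -0.34 from the lowest to the highest CpG class. Those at single promoters were 0.12, 0.15, -0.09, -0.17 and -0.14. The lowest classes held 7 and 20 close promoters. The matching on CpG class was added after the data were seen.

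Across the divergent promoters, levels in the immunoprecipitates went together and ratios did not. The matched immunoprecipitate differences correlated at r = 0.83 between SMAD2 and SMAD4 (1495 promoters), 0.74 between SMAD1/5 and SMAD4 and 0.70 between SMAD1/5 and SMAD2. The inputs correlated at 0.61, 0.47 and 0.58. The ratios correlated at 0.12, -0.02 and 0.14. Promoters are not independent replicates, and the points share probe sequence and base composition.

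No divergent promoter was enriched for SMAD1/5 or SMAD2 by the window rule, and 6 were for SMAD4. A window is the mean log2 ratio of at least 3 probes within 500 bp, and its z is the distance from the array's median window in robust SDs. That SD was estimated from the windows below the median alone and used for high and low windows alike. Promoters counted as enriched where a window reached a z of 4 and held 2 or more probes above the array's 95th percentile, and as low by the mirrored rule. For close pairs such windows also take in probes just inside the genes. Of 1457 divergent promoters with windows, 6 (0.412%) were enriched for SMAD4, against 2.26% of all annotated units. Counted by windows, 0.0783% of divergent and 0.219% of single-promoter windows were called, since units differ in length. For SMAD1/5 none of 1457 was enriched, against 0% of all units, and for SMAD2 none of 1449, against 0.0606%.

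Low windows were found at 15 divergent promoters for SMAD1/5 (1.03%), against 2.36% of all units. SMAD2 had 2 (0.138%), against 0.297%, and SMAD4 none, against 0.044%. By windows, 0.142% of divergent and 0.217% of single-promoter windows were low for SMAD1/5. For SMAD2 these shares were 0.0291% (4 windows) and 0.0216%, in the other direction than the shares of units. A z of 4 stood for a log2 ratio of 4.61 and 4.17 on the SMAD1/5 arrays, 2.29 and 2.23 on the SMAD2 arrays and 2.30 and 2.29 on the SMAD4 arrays. A call for SMAD1/5 thus needed a much higher ratio. Among close pairs with windows, 2 of 536 were low for SMAD1/5, and none was called for SMAD2 (of 530) or SMAD4 (of 536). Among distant pairs 13 of 921 were low for SMAD1/5, 2 of 919 low for SMAD2 and 6 of 921 enriched for SMAD4. Distant pairs hold more windows each, which these counts do not allow for.

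**Figure D4:**
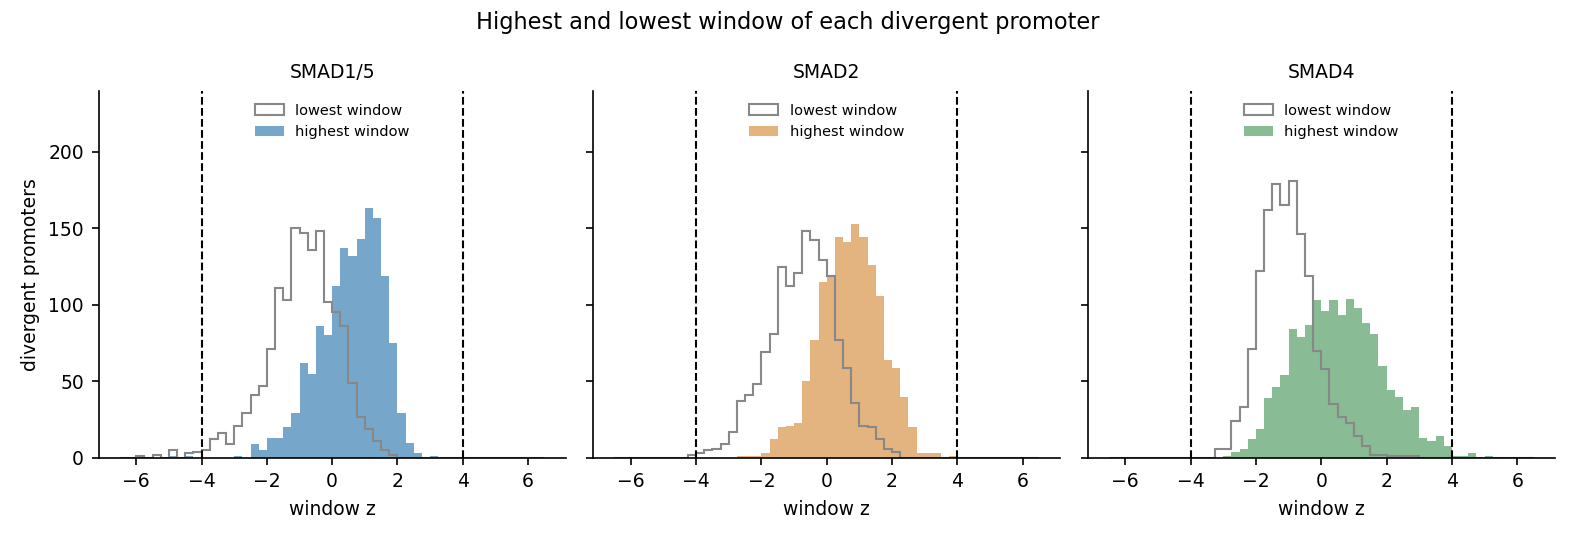
Number of divergent promoters (vertical axis) by the z of their highest window (filled) and lowest window (line) for each antibody; dashed lines mark a z of 4 and -4. The highest SMAD1/5 window reaches 3.04, the highest SMAD2 window 3.82 and the highest SMAD4 window 5.12.

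The 6 SMAD4-enriched promoters all belonged to pairs over 5000 bp apart. Distant pairs hold more probes (median 15, against 1 in close pairs), so more of their windows could be called. Shares of windows by spacing were not counted, so no difference by spacing is read from this. The highest was Clrn3/Ptpre, whose window, 2.93 ± 1.41 (SD, 3 probes), had a z of 5.12 and lay 3538 bp upstream of Ptpre, which encodes a receptor tyrosine phosphatase. That window lies at chr7:131939155-131939574 of the array annotation (genome build not given in the sources used), and its z was -0.35 for SMAD1/5 and 1.12 for SMAD2. Fam24b/Fam24a had 2.62 ± 0.45 over 5 probes (z 4.56), 531 bp upstream of Fam24b. Bmx/Pir, between a tyrosine kinase of the Tec family and pirin, had 2.60 ± 0.63 over 4 probes (z 4.55).

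Cpxm1/Tmem239 and Caly/Prap1 had 2.45 ± 0.25 over 4 probes (z 4.26) and 2.40 ± 0.92 over 3 probes (z 4.17). In the windows of these 5 promoters the SMAD4 input lay below the mean of the other antibodies' inputs, with log2 differences of -2.28 (Caly/Prap1) to -3.14 (Clrn3/Ptpre). The SMAD4 immunoprecipitate of these windows differed from that of the others by -0.74 (Fam24b/Fam24a) to 0.27 (Bmx/Pir). With windows of 300 bp, 5 promoters were enriched, 2 of them among the 6. None of the 6 was enriched with normexp correction, with the authors' values or with the mean input, and the z of the 5 described here then ran from 0.73 to 3.72.

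The highest SMAD1/5 windows were under the threshold. Bpifc/Fbxo7 stood at 3.15 ± 0.66 over 3 probes (z 3.04), 278 bp upstream of Bpifc. Tsfm/Mettl1 had a z of 2.64, Plgrkt/Cd274 2.56, Tcta/Rhoa 2.44 and Il23a/Pan2 2.43. Tcta/Rhoa is the close pair among them, with starts 253 bp apart, and Rhoa encodes a small GTPase of the cytoskeleton. Its window mean was 2.51 ± 1.25 over 5 probes, with a z of 0.14 for SMAD2 and -1.16 for SMAD4. The SMAD1/5 input of that window differed from the mean of the other antibodies by -1.77 and the immunoprecipitate by 0.53.

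The lowest SMAD1/5 window lay in a close pair, Slc5a6/Atraid, 409 bp apart on the array, whose sequence is printed above. Slc5a6 encodes a vitamin transporter. The window mean was -7.36 ± 1.34 over 3 probes (z -5.98), against a z of -0.02 for SMAD2 and -1.03 for SMAD4. Its SMAD1/5 input was 8.10 above the mean of the other inputs and its immunoprecipitate 0.32 above. Slc51a/Zdhhc19 had a z of -5.46 and Smpdl3b/Rpa2 -5.39, with inputs 5.63 and 7.60 above the others.

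The other close pair among the low calls was Abcg5/Abcg8, which encode the subunits of a sterol exporter, at -5.16 ± 1.02 over 6 probes (z -4.76). Over all 15 low promoters the SMAD1/5 input was above the others by 3.91 (Pcgf2/Psmb3) to 8.62 (Lce3a/Lce3b). With the mean input as denominator, none of the 15 was called low, and windows of 300 bp kept 9 of them.

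SMAD2 windows peaked at Lsg1/Fam43a, with 2.13 ± 0.33 over 3 probes (z 3.82), 4352 bp upstream of Fam43a. Zfp672/Sh3bp5l had a z of 3.38, C2/Zbtb12 3.33 and Atox1/G3bp1 3.13. In these 4 the SMAD2 input lay below that of the other antibodies, with differences of -0.95 to -2.99. The 2 low SMAD2 promoters were Prorsd1/Mtif2 (z -4.23) and Tdgf1/Lrrc2 (z -4.02). Prorsd1/Mtif2 had a z of -0.12 with normexp and -3.89 with the mean input, and Tdgf1/Lrrc2 -3.07 with normexp and -3.52 on the authors' values.

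Tdgf1 encodes Cripto, a co-receptor for Nodal. In its divergent promoter with Lrrc2 the same window lay below the array median with all 3 antibodies, past the threshold for SMAD2 alone, 1757 bp upstream of Tdgf1. The window mean over 5 probes was -2.17 ± 0.70 for SMAD2 and -1.64 ± 0.57 for SMAD4 (z -3.10), and the SMAD1/5 z was -2.35. The window lies at chr9:110645115-110645749 of the array annotation. Over its 18 probes the promoter's input was higher than at single promoters by 1.79 for SMAD2, 1.65 for SMAD4 and 0.55 for SMAD1/5, and the immunoprecipitates differed by 0.66, 0.61 and -0.18. The lowest SMAD4 window was that of Odr4/Tpr, with a z of -3.14.

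The promoters whose windows were highest over all 3 antibodies at once stayed under the threshold. Gcc1/Arf5 led, with z values of 2.21, 1.67 and 2.31 for SMAD1/5, SMAD2 and SMAD4 at 936 bp upstream of Gcc1, which encodes a Golgi protein. Gimap6/Gimap7, GTPases of immune cells, followed with 1.61, 1.71 and 3.85, and Il23a/Pan2 with 2.43, 1.72 and 1.56. Saa1/Saa2, the acute-phase serum amyloid genes, had 1.55, 1.54 and 2.74. Ppm1n/Rtn2 had 2.34 for SMAD2 and 2.45 for SMAD4, and its SMAD1/5 z was the lowest among these 5 promoters. Each window held 3 probes.

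Of 34 divergent pairs listed as well known, 16 were annotated as such on the arrays. Their SMAD4 ratio was above that of single promoters in 6 of 16, with a median of -0.31, and their SMAD4 input in 11 of 16. Over all 1500 divergent promoters the medians were -0.14 for the SMAD4 ratio and 0.48 for the SMAD4 input. There 37.5% had a SMAD4 ratio and 70.9% a SMAD4 input above that of single promoters, near the shares among the known pairs. The median SMAD1/5 difference of the 16 was 0.41 and the median SMAD2 difference 0.13, against 0.11 and 0.02 over all. None of the 16 reached the window threshold with any antibody.

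Among the DNA repair pairs, Brca1/Nbr1 had a mean SMAD1/5 log2 ratio of 1.28 ± 1.38 (SD over 10 probes), with -0.45 ± 0.96 for SMAD2 and -0.07 ± 0.48 for SMAD4. Brca1 acts in homologous recombination. Mcm4/Prkdc, a subunit of the replicative helicase beside the DNA-dependent protein kinase, had the lowest SMAD4 value of the 16, -1.59 ± 0.84 over 3 probes. Its SMAD1/5 value was 0.66 ± 1.63 and its SMAD2 value 0.72 ± 0.31. The SMAD4 input of Mcm4/Prkdc was 2.17 above single promoters and the immunoprecipitate 0.62 above.

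Wrap53/Trp53, which holds the start of the p53 gene, had -0.15 ± 0.26, -1.05 ± 0.61 and 0.33 ± 0.62 for SMAD1/5, SMAD2 and SMAD4 over 2 probes. Alkbh2/Ung, both base damage repair enzymes, had -0.61 ± 1.89, 0.13 ± 0.71 and -0.58 ± 0.66 over 12 probes. The SMAD1/5 values of both pairs lay within 1 SD of 0.

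The mitochondrial pairs differed widely, mostly on 1 probe each. Mrps12/Sars2, a mitochondrial ribosomal protein and the mitochondrial seryl-tRNA synthetase, had a log2 ratio of 1.69 for SMAD1/5, 2.10 for SMAD2 and 0.23 for SMAD4. Its inputs differed from single promoters by -2.36, -2.99 and 0.48. Hspd1/Hspe1, the chaperonin subunits of mitochondria, had -0.67, 0.57 and -0.04, with inputs 2.82, 0.83 and 1.10 above. Sirt3/Psmd13 and Emc8/Cox4i1 were dim in every channel. Their inputs differed from single promoters by -2.68, -2.22 and -1.51 and by -2.33, -2.24 and -2.31 in the same order. Sirt3 encodes a mitochondrial deacetylase and Cox4i1 a subunit of cytochrome oxidase.

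The collagen IV genes lie head to head in 3 pairs. Col4a1/Col4a2 had -1.90, 0.37 and 0.25 for SMAD1/5, SMAD2 and SMAD4 on 1 probe. Col4a4/Col4a3 had -1.97, -0.39 and -0.63 on 1 probe, and Col4a6/Col4a5 0.28 ± 1.59, -0.14 ± 0.86 and -0.62 ± 0.95 over 7. Psmb9/Tap1, genes of antigen processing, had -0.11 ± 1.63, 0.32 ± 0.19 and 0.44 ± 1.57 over 3 probes. The remaining pairs, Hadha/Hadhb, Pdcd10/Serpini1 and Mtx1/Thbs3, had SMAD1/5 ratios from -0.80 to 0.97, SMAD2 ratios from -0.25 to 0.44 and SMAD4 ratios from -0.69 to 0.35.

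**Figure D5:**
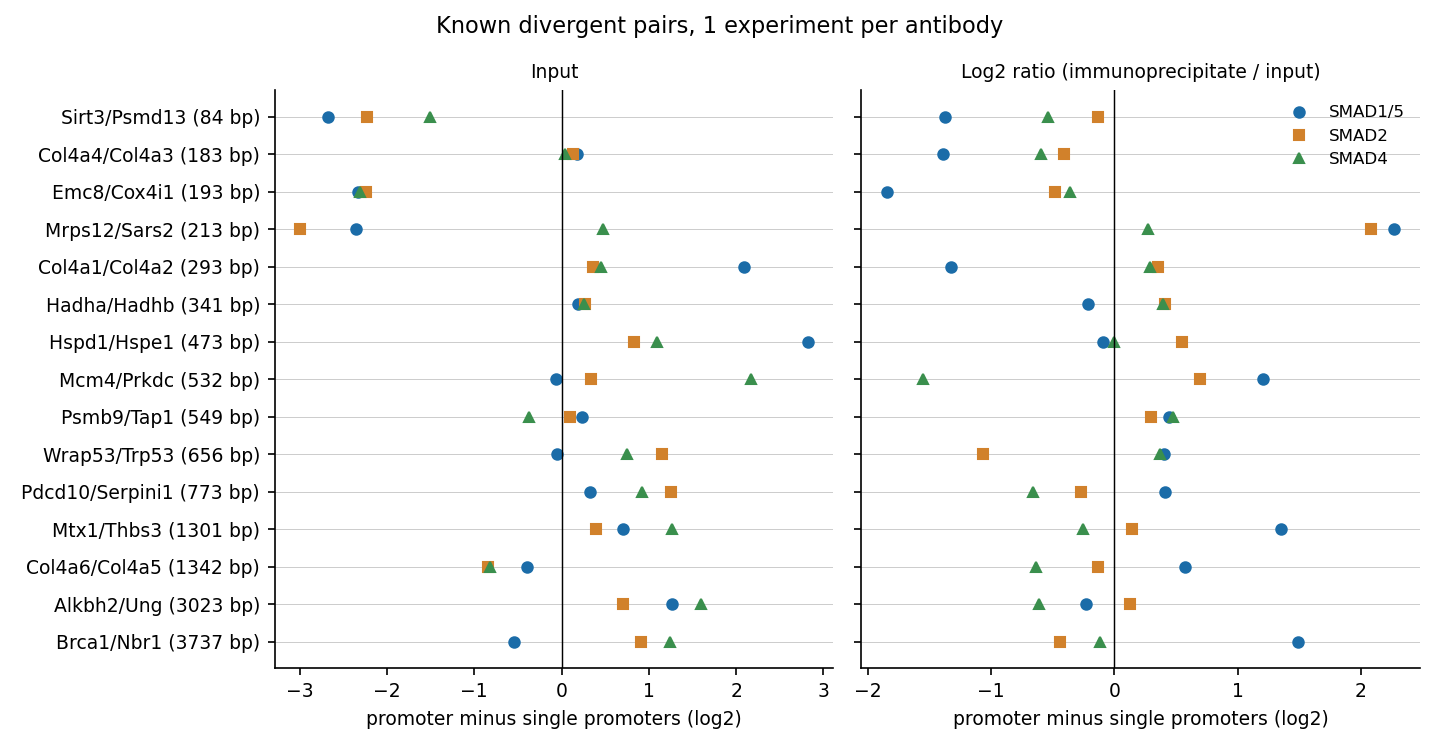
Difference of 15 of the known divergent pairs from single promoters at the same distance (horizontal axes, log2) for the input and for the log2 ratio of immunoprecipitate over input, with the pairs ordered by the distance between their starts; each point is 1 antibody, with no replicate. The SMAD4 ratio lies above 0 in 6 of the 15 pairs, against 37.5% of all divergent promoters, and Mcm4/Prkdc is the lowest.

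Over all genes on the arrays 12.0% had a divergent promoter. None of 20 BMP target genes and none of 22 SMAD pathway genes on the lists used here had one. Of 18 measured Activin, Nodal and TGF-beta targets 3 (16.7%) did: Tdgf1, Junb and Foxh1. Tdgf1, a Nodal co-receptor, and Foxh1 were listed as targets and not as SMAD pathway genes, so the counts depend on the lists. Junb/Hook2, with an AP-1 subunit, had a highest window z of 2.23, for SMAD2, and Foxh1/Ppp1r16a, with a SMAD2 partner factor, one of 1.53, for SMAD4. Of 26 pluripotency genes 3 had a divergent promoter. Besides Tdgf1/Lrrc2 these were Aire/Dnmt3l, with a highest z of 0.88, and Zbtb45/Trim28, with 0.20 and a SMAD4 difference of -1.04.

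DNA repair, mitochondrial and cell cycle genes were more often in divergent promoters, with 16 of 45 (35.6%), 18 of 49 (36.7%) and 12 of 40 (30.0%). The 16 DNA repair promoters had a median SMAD1/5 difference of 1.15, with 13 above 0. Over all divergent promoters the median was 0.11, with 55.9% above 0. The 27 DNA repair genes with a single promoter had a median of 0.06, with 15 above 0. The median SMAD1/5 immunoprecipitate of the 16 was 0.64 above single promoters and the median input difference was -0.25. The SMAD1/5 median stayed above 0 with normexp (0.29), the authors' values (0.55) and the mean input (0.53). For SMAD2 and SMAD4 the medians of the 16 were 0.06 and -0.17, but -0.24 for SMAD2 with normexp and 0.37 for SMAD4 with the mean input. None was called with any antibody.

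The 4 DNA repair promoters with the highest windows were Rad50/Il5 (z 2.68, SMAD2), Fanca/Spire2 (2.31, SMAD2), Ankrd49/Mre11a (2.18, SMAD1/5) and Brca1/Nbr1 (2.08, SMAD1/5). Rad50 and Mre11a encode subunits of the same break-sensing complex. Ankrd49/Mre11a had a mean log2 ratio of 1.82 for SMAD1/5, -1.14 for SMAD2 and -0.71 for SMAD4. Rad50/Il5 had 0.73, 0.61 and -0.03. Neither promoter had the same sign with all 3 antibodies.

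The 17 mitochondrial promoters had medians of 0.31 for SMAD1/5, 0.13 for SMAD2 and -0.36 for SMAD4, with 11, 10 and 7 above 0. Over all divergent promoters 55.9%, 51.7% and 37.5% were above 0. The SMAD1/5 median was -0.11 and the SMAD4 median 0.17 with the mean input, and the SMAD2 median -0.10 with normexp. Sdhd/Timm8b, with a subunit of succinate dehydrogenase and a mitochondrial import factor, had the highest SMAD4 window of all close pairs, at a z of 2.73. Ndufa9/Akap3 reached 1.86 and Oaz3/Mrpl9 1.77, while Zfp661/Mrps5 reached 1.75. None of the 17 was called.

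The 12 cell cycle and replication promoters had medians of 0.34, 0.05 and -0.19 for SMAD1/5, SMAD2 and SMAD4. The SMAD1/5 median was -0.0039 over bright probes alone, the SMAD2 median -0.04 with normexp and the SMAD4 median 0.01 with the mean input. The highest windows were those of Mcm2/Tpra1 (z 2.12, SMAD2), Cenpb/Cdc25b (1.90, SMAD2), Smpdl3b/Rpa2 (1.68, SMAD4) and Cdc25c/Fam53c (1.55, SMAD4). Smpdl3b/Rpa2 is also among the low SMAD1/5 promoters above. Of 26 chromatin regulator genes 4 had a divergent promoter: Kdm1a/Tex46 (highest z 1.80), Ash2l/Kcnu1 (1.63), Mgat4e/Kdm5b (1.49) and Hdac3/Rell2 (0.72). Their medians were 0.24, 0.08 and -0.25 for SMAD1/5, SMAD2 and SMAD4. The SMAD1/5 median was below 0 with normexp (-0.08), the authors' values (-0.03), the mean input (-0.22) and bright probes alone (-0.28), and the SMAD4 median was above 0 with normexp (0.01) and the mean input (0.19).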

How the data were processed

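DNA from 3 immunoprecipitations and their inputs was measured on 6 two-colour arrays, grouped by the antibody and the array number that each title gives. The deposited scanner files hold an intensity per spot and channel. Agilent Feature Extraction had subtracted background from it and normalised the dyes, per the file headers, with version 9.1.3.1 for SMAD1/5 and SMAD2 and 9.5.3.1 for SMAD4. The files also hold other columns, the deposited flags for outlying and dim spots. The deposited log2 values of the authors, for which the submitters' processing notes name limma, were an alternative. They correlated with the scanner log2 ratio at 0.74 to 0.95, so their direction is immunoprecipitate over input. Their scale and centring stay unknown, and their medians were 0.08 and -0.01 (SMAD1/5), 0.05 and 0.04 (SMAD2) and about 0 (SMAD4).

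Outlier spots were left out (1.06% and 1.82% for SMAD2, at most 0.02% otherwise), log2 red over green was centred on the array median, and each divergent probe was set against the mean of at least 20 single-promoter probes in the same 250-bp distance bin. Values were averaged per promoter, per array, then over both arrays. Promoters and distances follow the array annotation. Of 3000 gene names, 2868 were updated by accession, 65 by symbol and 39 by an older symbol, and 28 kept the file's name. Normexp used limma 3.58.1 with an offset of 50, the rest Python 3.11.15. The steps were tested on simulated data.

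The rule for named promoters took the listed known pairs, per antibody the 5 highest and 3 lowest windows with gene symbols, the 5 highest by the lowest z of 3 antibodies, and up to 4 per gene list. All promoters called for SMAD4 and single low promoters were added after their values were seen. The members, pairs and lists were chosen with earlier results of these data known. RefSeq sequences were matched by symbol. In 268 of 416 close pairs with both sequences the RefSeq spacing lay within 100 bp of the array's. A few promoters that this rule takes are not reported here.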

Additional observations from a re-analysis of the deposited data

Results flagged for a closer look

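The distance-matched log2 ratio difference had opposite signs between antibodies. It was below 0 on both SMAD4 arrays (mean -0.16) and above 0 on both SMAD1/5 arrays (mean 0.087) and both SMAD2 arrays (mean 0.036). The SMAD2 value on array 1 (0.0054 ± 0.0195) and the SMAD1/5 value on array 2 (0.0383 ± 0.0399) were smaller than their SE over promoters. The difference between the antibodies was not tested, since each has 1 experiment, and the sign turned for SMAD2 with normexp correction and with the mean input, and for SMAD4 with the mean input.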

How the results depend on the processing

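The SMAD4 difference over all pairs (-0.16) was -0.075 with normexp, -0.10 with the authors' values, 0.0053 with the mean input and -0.048 when each probe counted once. In close pairs (-0.36) the first 3 gave -0.22, -0.27 and -0.094, and in distant pairs (-0.05) 0.0099, -0.0044 and 0.061. The SMAD1/5 difference (0.087) was 0.022 from the authors' values and 0.0067 from the mean input. Its close-pair value (0.022) was -0.042 and -0.075 under these, and -0.084 on array 2 alone. The SMAD2 difference (0.036) was -0.036 with normexp, -0.055 with the mean input, 0.0054 on array 1 alone and 0.066 on array 2 alone. Its close-pair value (0.034) was -0.050 and -0.14, and its distant-pair value (0.037) -0.028 and -0.0081, with normexp and the mean input. The split by spacing was added after the data were seen. Bins of 100 bp, bins within chromosomes, bins by the other antibodies' input and bright probes alone kept the sign of all 3 differences over all pairs.

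Windows of 300 bp gave similar counts of calls, though of partly other promoters. SMAD4 enriched promoters (6) were 0 with normexp, the authors' values or the mean input, 40 at a z of 3 and 1 at a z of 5. SMAD4 low promoters (0) were 7 with the mean input and 6 at a z of 3. SMAD1/5 low promoters (15) were 100 with normexp, 42 from the authors, 1 with the mean input, 55 at a z of 3 and 3 at a z of 5. SMAD1/5 enriched promoters (0) were 47, 1 and 1 with normexp, the authors' values and a z of 3. With normexp 4.53% of all units were enriched for SMAD1/5. SMAD2 low promoters (2) were 0 with normexp, 1 with the authors' values, 18 with the mean input, 22 at a z of 3 and 0 at a z of 5, and SMAD2 enriched promoters (0) were 6 at a z of 3. The cause was not tested. Of 25 named windows 11 were past the threshold, of which 7 fell below it on the authors' scale, 8 with normexp and 10 with the mean input. No paired analysis was possible because each antibody has 1 replicate.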
